A study of Drosophila melanogaster with 22 samples.

Results

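Polarity of the fly egg rests on mRNAs that are carried to, and held at, fixed places in the oocyte, and the 10 genes described here encode the RNA-binding proteins, adaptors and motors known for that work: swa, exu, stau, BicD, egl, Dhc64C, Khc, orb, me31B and cup. They were chosen by name, as the rows of the deposited annotation (FlyBase release 6) that carry these symbols, and are 10 of 17478 annotated genes. Of these, 9 had counts in every library and passed the filter on low counts, and cup had none in any library. RNA was sequenced from anterior ovarioles, the germarium with the young egg chambers behind it, of virgin w1118 females, a white-eyed laboratory strain, on each of days 1 to 8 after eclosion. Every group was untreated and of this genotype, and the groups differed in age and in dissection: ovarioles of days 1 to 4 were cut to include egg chambers up to stage 8, those of days 5 to 8 up to stage 7. Age and dissection therefore cannot be told apart between these series. There were 2 libraries on days 1 and 4 and 3 on every other day, each from 30 to 50 ovarioles and 200 ng of total RNA and described in the labels as biological replicates.

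As background, nurse cells make most of the RNA of the oocyte and pass it through ring canals. Egalitarian, the product of egl, binds localization signals in mRNAs and joins Bicaudal D, which recruits the minus-end motor dynein, whose heavy chain is Dhc64C. This complex brings mRNAs into the oocyte and is needed for 1 cell of a cyst to become the oocyte. Later, kinesin-1, with Khc as its motor subunit, moves oskar mRNA to the posterior together with the double-stranded RNA-binding protein Staufen (stau), while Exuperantia (exu), Swallow (swa) and Staufen act in the localization of bicoid mRNA at the anterior. Orb, a CPEB protein, activates translation and polyadenylation of bound mRNAs, and the DEAD-box helicase Me31B and the eIF4E-binding protein Cup keep mRNAs silent while they travel.

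Gene counts were 1146915 to 9781870 per library in days 1 to 4 (n = 10) and 2975582 to 4634327 in days 5 to 8 (n = 12). ERCC spike-in controls, synthetic RNAs, were nearly lacking from 3 young libraries, with 31 counts in replicate 1 of day 2, 19 in replicate 2 of day 3 and 52 in replicate 2 of day 4, while the other 19 libraries held at least 25577. These 3 libraries stood apart in the members too, so results for the members that rest on them are given with and without them. Libraries are called with or without spike-in accordingly. All 10 germline markers (such as vas and nos) and all 10 follicle cell markers (such as tj) had counts. The germline sum was 2893 to 3293 CPM in the 7 young libraries with spike-in, 2287 to 2537 CPM in the 3 without and 2820 to 3334 CPM in days 5 to 8. Follicle cell markers summed to 1463 to 2224, 1074 to 1318 and 1845 to 2593 CPM in the same groups. In such bulk RNA, fewer cells of a type and less RNA per cell cannot be told apart.

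The members differed widely in level. Levels are compared between genes as CPM per kb, CPM being gene counts scaled to a common total (with TMM library sizes, a scaling that allows for differences in composition) divided by the length of all annotated exons of the gene. Highest was me31B (FBgn0004419; 2L, 10239341 to 10242172) with a median of 405 CPM per kb over the 22 libraries (325 to 786), followed by orb (FBgn0004882; 3R, 23260610 to 23280856) with 197 (141 to 258) and swa (FBgn0003655; X, 6363418 to 6365708) with 91.0 (72.7 to 135). Each of these lay above the next gene in all 22 libraries, so the order of the first 3, and their place above the other members, held in every library.

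The next 5 genes lay close together. In CPM per kb, exu (FBgn0000615; 2R, 20667427 to 20671083) had a median of 57.4 (46.9 to 81.7) and stau (FBgn0003520; 2R, 18117896 to 18125779) one of 55.7 (34.9 to 66.7). For Khc (FBgn0001308; 2R, 16266960 to 16271971) the median was 51.7 (39.4 to 65.2), for egl (FBgn0000562; 2R, 23734904 to 23746829) 46.2 (38.2 to 67.2) and for BicD (FBgn0000183; 2L, 17459605 to 17473215) 44.2 (32.1 to 52.4). Neighbours in this order exceeded one another in only 12 to 16 of 22 libraries, so their order is not fixed by these data. With the length of the longest transcript in place of all exons, exu moved most in proportion to its level, to 71.8 CPM per kb, while me31B was at 439 and orb at 211. Lowest was Dhc64C (FBgn0261797; 3L, 4807368 to 4825687) with 28.4 (19.5 to 51.6), below BicD in 18 of 22 libraries. Even so, Dhc64C was above 68.9% of the 8024 genes tested, and me31B above 98.3%.

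**Figure D1:**
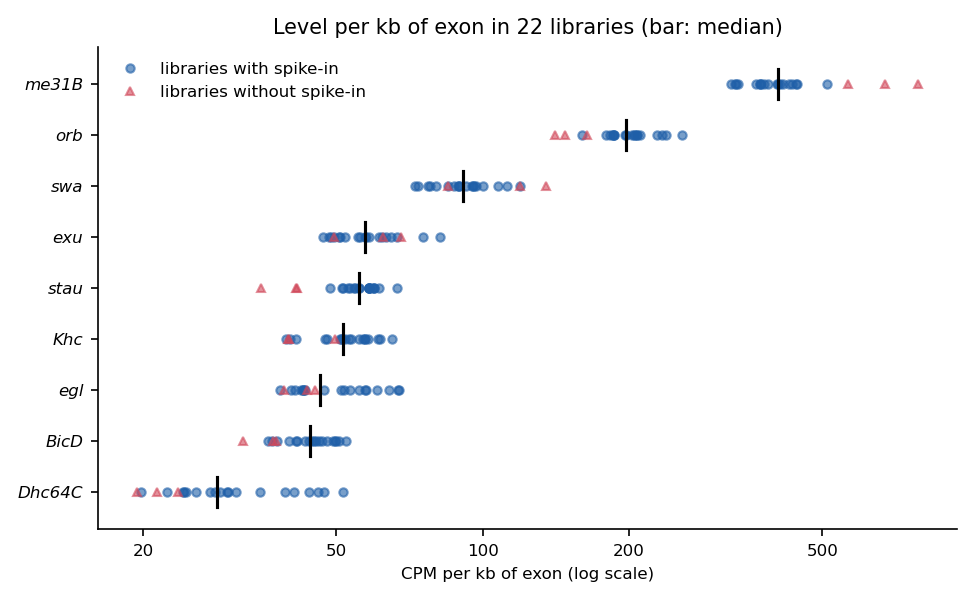
Level of each member in the 22 libraries, in CPM per kb of exon on a log axis; points are libraries, with triangles for the 3 without spike-in, and bars are medians. me31B, orb and swa are separated from the rest, exu to BicD overlap, and Dhc64C is lowest and most widely spread.

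The adaptor pair egl and BicD had a ratio of levels per kb with a median of 1.16 (0.755 to 1.70, n = 22). Their levels did not move closely together: the Pearson correlation of log2 CPM was 0.31 over the 22 libraries and 0.08 over the 12 libraries of days 5 to 8, given as a description of libraries that share preparation and depth. The motors differed more by library. Khc was at a median of 1.16 times the per-kb level of Dhc64C in the 7 young libraries with spike-in (0.900 to 1.65), 1.86 times in the 3 without (1.69 to 2.55) and 2.14 times in days 5 to 8 (1.35 to 2.42). The bicoid factors swa and exu kept a ratio of 1.26 to 2.17 in all libraries.

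The member with no counts, cup (FBgn0000392; 2L, 6663664 to 6674780, plus strand), has no exon base of its own in the annotation. All 4306 of its exon bases are also exon bases of CG34310 (FBgn0085339), annotated at the same coordinates on the same strand with 265 bases more. CG34310 itself had only 4 to 72 counts per library, or 2.40 to 9.72 CPM. The same held for all such genes: of 370 genes whose every exon base was shared on the same strand, 0 had a count in any library, against 92 of 123 genes (74.8%) shared entirely with the opposite strand and 9713 of 12116 (80.2%) sharing no base. As background, HTSeq by default assigns no gene to a read that overlaps several equally. A count of 0 in this file thus gives no level for cup. Its 3′ neighbour on the other strand, cort, overlaps it by 99 bases and had 22 to 352 counts per library. Among the other members, exu shares 12.1% of its exon bases with CG30152 on the opposite strand and Dhc64C shares 0.267% with CG18808 on the same strand.

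No member was called among the days of either age series, though their spread over all libraries of a series differed between the series. In days 5 to 8 the coefficient of variation over the 12 libraries was 6.16% for BicD and 6.89% for stau, and the others ranged from 10.5% (swa) to 17.6% (egl). The highest day mean exceeded the lowest by 1.07 times for BicD to 1.31 times for orb, whose mean peaked at 2220 CPM on day 6 and was lowest, at 1694 CPM, on day 8. No member differed among days 5 to 8 at an adjusted p under 0.05 (edgeR quasi-likelihood test with Benjamini-Hochberg adjustment over all genes, the meaning of called throughout). The lowest unadjusted p was 0.108, for orb, and the background was also near 0, with 0.0125% of all genes called. Day 8 against day 5 called 0 members and 0% of all genes. The estimates ran from -0.26 ± 0.15 (SE) for orb to 0.23 ± 0.16 for swa on the log2 scale.

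In days 1 to 4, where 0.0249% of all genes were called, the spread over all 10 libraries was wider for several members. The coefficient of variation over the 10 libraries, the 3 without spike-in included, was 31.4% for Dhc64C, 31.3% for me31B and 20.9% for egl, and at most 19.3% (stau) for the others. In the 7 libraries with spike-in the means were 633 ± 81.4 CPM (SD) for Dhc64C, 735 ± 106 for me31B, 236 ± 50.3 for egl and 315 ± 23.0 for stau. Over all 10 they were 537 ± 168, 888 ± 278, 223 ± 46.6 and 284 ± 54.7 CPM. For Dhc64C, me31B and stau the SD was smaller without the 3 libraries, and for egl it was not. Over all 10 libraries, the highest day mean exceeded the lowest by 1.61 times for egl, 1.40 times for me31B and 1.39 times for Dhc64C. The level of egl was 303 and 289 CPM in the 2 libraries of day 1, at 177, 193 and 182 on day 2, at 260, 196 and 186 on day 3 and at 241 and 205 on day 4. Both libraries of day 1 lay above every other young library. The test for any difference among the 4 days, which is not a test of day 1 alone, did not pass for egl (unadjusted p = 0.0307, adjusted p = 0.553 by edgeR). Day 4 against day 1 called 0 members and 0.0374% of all genes, with estimates from -0.44 ± 0.33 for Dhc64C and -0.41 ± 0.24 for egl to 0.23 ± 0.28 for me31B (log2 change, SE). Replicate 2 of day 4 lacks spike-in, and both libraries of day 1 have it. Without the 3 libraries lacking spike-in, 1 library is left on day 4. There swa, BicD, Dhc64C and me31B changed sign, and egl did not. The change from day 5 to day 8 did not differ from that of day 1 to day 4 for any member at this threshold (0 members and 0% of all genes called). The estimate with the lowest p was again egl, at 0.56 ± 0.30 (SE, unadjusted p = 0.0794, adjusted p = 0.549, edgeR). At an unadjusted p under 0.05, egl among days 1 to 4 was the 1 member that passed in any of these 5 tests, and DESeq2 called no member in them.

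**Figure D2:**
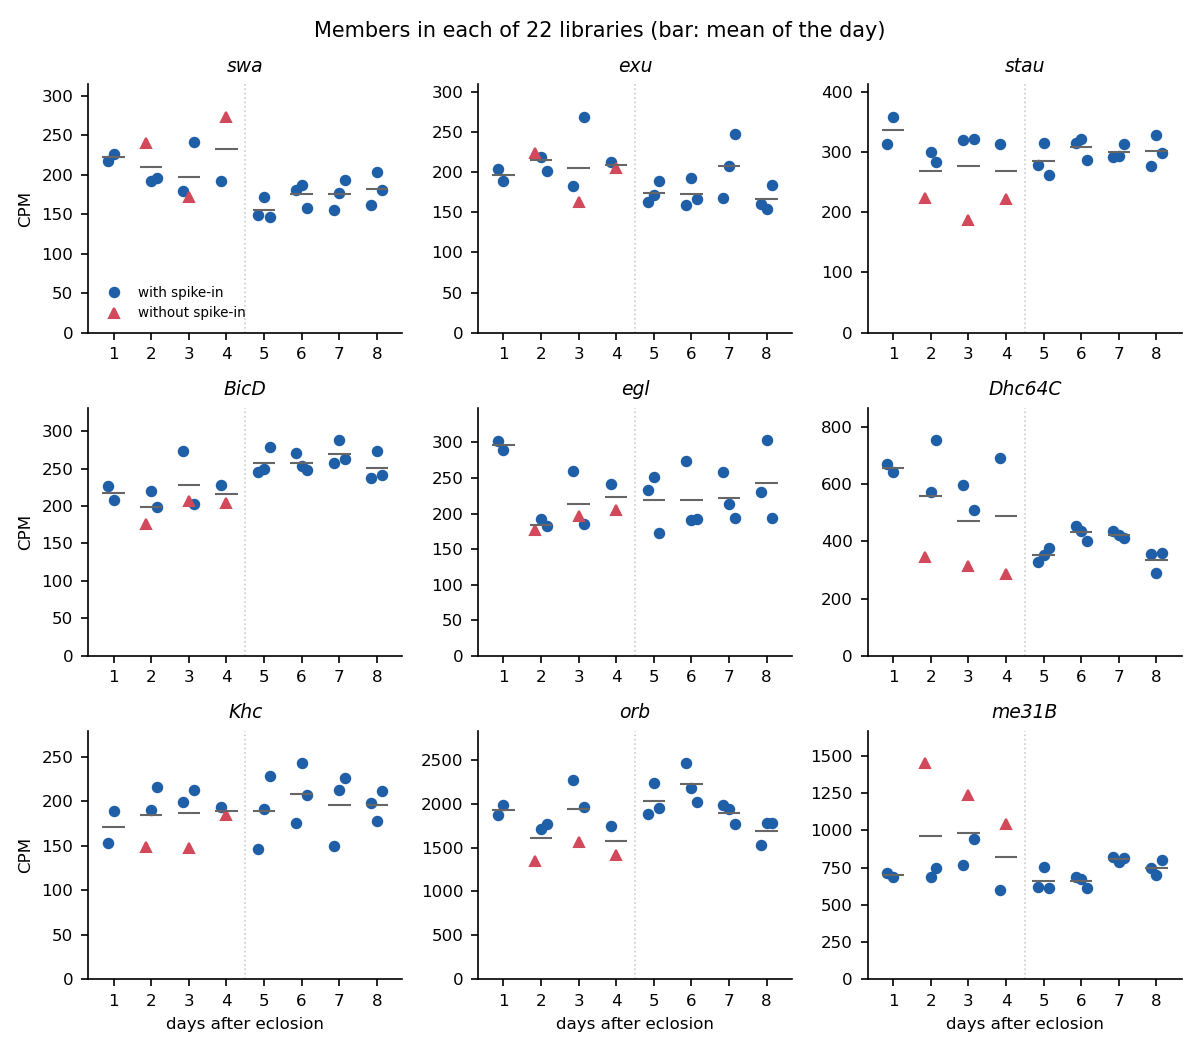
CPM of the 9 counted members in each library by day after eclosion (linear axes from 0); circles are libraries with spike-in, triangles the 3 without, bars the mean of a day, and the dotted line parts the age series. Triangles sit apart for Dhc64C, stau and orb (low) and me31B (high), and BicD is higher after the line in most libraries.

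The comparison that did show differences set days 5 to 8 against days 1 to 4. BicD was higher, and swa and Dhc64C were lower, in the older series. These were 3 of the 9 members tested, beside 8.82% of all genes (4.06% higher, 4.76% lower). The adaptor BicD and the motor subunit Dhc64C, which act in 1 complex, had opposite signs over all libraries, but both were called higher in the older series when set against the 3 young libraries without spike-in alone (0.42 and 0.30). Of 35 alternatives, BicD was called in 31 and Dhc64C in 22, once in the other direction. The RNA-binding partner of BicD, egl, was at 223 ± 46.6 CPM (SD, n = 10) and 226 ± 39.8 CPM (n = 12).

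For BicD the young libraries, in order of day, had 227 and 207 CPM on day 1, 176, 220 and 199 on day 2, 274, 207 and 203 on day 3, and 229 and 204 on day 4. The older libraries ran from 237 through a median of 256 to 288 CPM. All young libraries except day 3 replicate 1 lay below every older library. The means were 214 ± 25.7 (SD, n = 10) and 259 ± 15.9 CPM (n = 12), a log2 change of 0.27 ± 0.074 (SE, edgeR adjusted p = 0.0248). Without the 3 libraries lacking spike-in the change was 0.23 ± 0.075 and stood at the threshold (adjusted p = 0.04996, or 0.0554 with the same 8024 genes tested).

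The bicoid factor swa had 217 and 226 CPM on day 1, 241, 193 and 196 on day 2, 180, 171 and 242 on day 3, and 192 and 273 on day 4. In the older series it ran from 147 through a median of 174 to 203 CPM. The groups overlapped, with 5 of 10 young libraries above every older one and 5 of 12 older libraries below every young one. The means were 213 ± 32.3 and 172 ± 18.0 CPM (SD, n = 10 and 12), and swa fell by 0.33 on the log2 scale (SE 0.087, edgeR adjusted p = 0.0222). Without the 3 libraries lacking spike-in the change was -0.24 ± 0.085 and was not called (adjusted p = 0.0623). The related factor exu, at 207 ± 28.3 and 180 ± 26.7 CPM, had a change of -0.20 ± 0.091 that did not pass (adjusted p = 0.183).

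Dhc64C was the member called in opposite directions depending on the young libraries used. With spike-in it had 669 and 641 CPM on day 1, 573 and 753 on day 2, 596 and 507 on day 3, and 690 on day 4. The 3 libraries without spike-in had 345, 312 and 284 CPM, and the older series ran from 289 through a median of 388 to 455 CPM. All 7 young libraries with spike-in lay above all 12 older libraries, whereas the 3 without lay among or below them. Over all libraries Dhc64C fell by 0.49 on the log2 scale (SE 0.14, edgeR adjusted p = 0.0336). Without the 3 libraries it fell by 0.73 (SE 0.071, adjusted p = 2.94e-07), and against those 3 alone it was called in the other direction, at 0.30 ± 0.092 (adjusted p = 0.0303).

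The remaining members had no called change between the age series over all libraries. In log2 units, me31B was at -0.27 ± 0.12 (SE, edgeR adjusted p = 0.189), orb at 0.15 ± 0.082 (0.262), Khc at 0.11 ± 0.11 (0.568), stau at 0.06 ± 0.096 (0.743) and egl at 0.00 ± 0.10 (0.997). Against the 3 young libraries without spike-in alone, where 19.0% of all genes were called, 6 members were called: stau (0.52), orb (0.45), BicD (0.42) and Dhc64C (0.30) higher, and me31B (-0.77) and swa (-0.37) lower. Against the 7 with spike-in alone, where 13.5% of all genes were called, among them BicD and Dhc64C, me31B was at 0.02 ± 0.069 and stau at -0.07 ± 0.069, both with the opposite sign. With either day 1 library left out the calls thinned to BicD alone (without replicate 1) or to 0 members (without replicate 2), with estimates of 0.30 and 0.27 for BicD, -0.33 and -0.31 for swa and -0.47 and -0.48 for Dhc64C. The call of swa was also lost without day 4 replicate 2 (one of the libraries without spike-in). That of Dhc64C was lost when either day 1 library, day 2 replicate 3, day 3 replicate 1 or 3, day 4 replicate 1, day 6 replicate 3, day 7 replicate 2 or 3, or day 8 replicate 2 was left out.

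**Figure D3:**
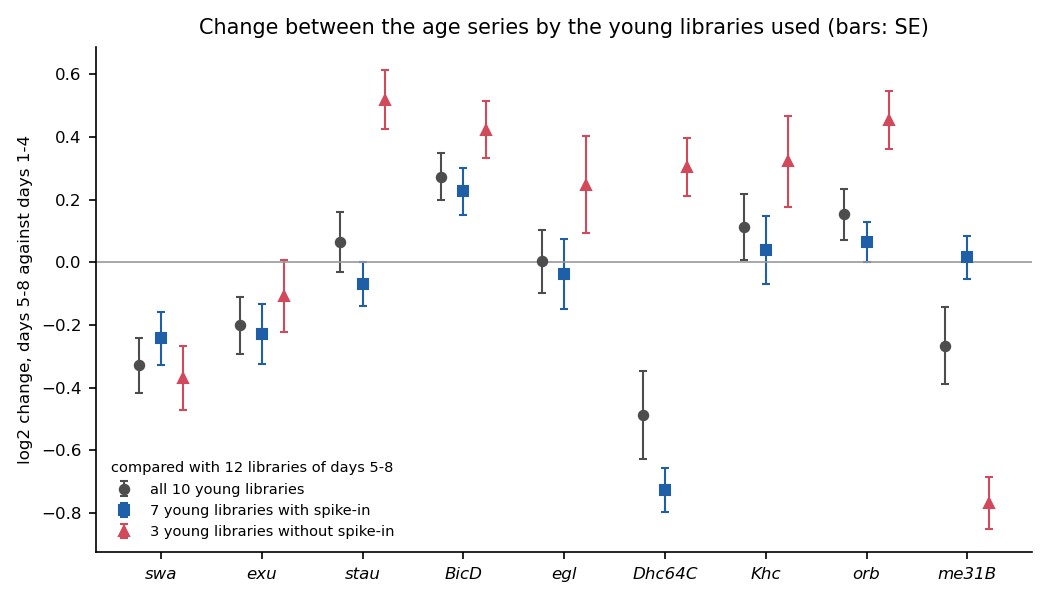
Log2 change of each member from days 1 to 4 to days 5 to 8 (vertical axis, bars are SE), with all 10 young libraries (circles), the 7 with spike-in (squares) or the 3 without (triangles) set against the same 12 older libraries. swa, BicD, exu, orb and Khc keep their sign in all 3 versions, Dhc64C goes from -0.73 to 0.30, and me31B from 0.02 to -0.77.

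Markers of other tissues and of the eggshell moved with the same comparison. Late eggshell genes, made by follicle cells, had counts for all 17. Their sum was 542 to 2315 CPM in the 7 young libraries with spike-in and 1013 to 1625 CPM in the 3 without. In days 5 to 8 it was 41.7 to 312 CPM. Muscle genes, from the sheath around ovarioles, summed to 490 to 2537, 460 to 629 and 289 to 747 CPM in the same groups, with counts for all 12. The muscle sums of the 3 young libraries without spike-in thus lay within the older range. Fat body and yolk genes summed to 278 to 1135, 162 to 429 and 37.5 to 403 CPM. All 6 had counts except that Fbp1 was at 0 in the 7 young libraries with spike-in. In the older series 15 of 16 eggshell, 12 of 12 muscle and 3 of 3 fat body and yolk genes tested (of 6 listed) were called lower. These and the other marker calls were made against all 10 young libraries. Follicle cell markers had 4 of 10 genes called higher, with a median log2 change of 0.40. Germline markers had 2 of 10 called lower (vas and nos), but 6 of the 10 changes were positive, with a median of 0.09. Of these markers, nos is also on the cargo list below. Dhc64C, Khc and BicD are used in somatic cells as well as the germline. The part of these tissues, and of egg chamber stage, in the changes of BicD, swa and Dhc64C was not tested.

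The 3 young libraries without spike-in were set against the 5 with spike-in of the same days 2 to 4. This split is by spike-in content, not by a condition of the study. Depth coincided with it: the 3 libraries had 9781870, 4126054 and 3648865 gene counts, and the other young libraries at most 2573634. Transposon insertion features also took 2.64 to 4.11% of their counts, and at most 2.35% in the other young libraries. Of the 9 members, 4 were called, 1 higher and 3 lower, where 19.2% of all 7263 genes tested were called (6.76% higher, 12.5% lower). The 3 lower members, Dhc64C, stau and orb, are among the 4 longest of the 9, and the higher one, me31B, is the shortest.

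The helicase me31B had 1451, 1239 and 1042 CPM in the 3 libraries without spike-in and 687, 749, 767, 942 and 599 CPM in the 5 with it. The groups did not overlap, and the difference was 0.77 ± 0.11 on the log2 scale (SE, edgeR adjusted p = 0.000686). Overlap was described for the members only and was not counted over all genes, in this split or between the age series. A lack of overlap therefore does not mark the members off from other genes. Over the whole study these 3 libraries were the only ones above 942 CPM. Dhc64C, with the values given above, had a difference of -0.998 ± 0.13 (SE, edgeR adjusted p = 0.000408).

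For stau the values were 223, 187 and 222 CPM without spike-in and 283 to 321 CPM with it, with no overlap and a difference of -0.57 ± 0.11 (SE, edgeR adjusted p = 0.00455). The 3 libraries were also below all 12 older libraries, which had 261 to 328 CPM. For orb the values were 1347, 1565 and 1411 CPM against 1711 to 2274 CPM, again with no overlap (-0.39 ± 0.095, adjusted p = 0.0135). Khc was at 148, 148 and 184 CPM against 190 to 216 CPM, which did not overlap but did not pass (-0.37 ± 0.12, adjusted p = 0.0520), though DESeq2 called it. Without day 3 replicate 2, 1 of the 3 libraries, stau and orb were not called, and orb was also lost without day 2 replicate 1 or without either library of day 4. BicD (-0.22 ± 0.13), egl (-0.17 ± 0.13), exu (-0.17 ± 0.15) and swa (0.13 ± 0.15) overlapped and were not called. Within a library, the per-kb level of me31B was 29.0 to 33.3 times that of Dhc64C without spike-in and 6.87 to 14.7 times with it among the young, and 11.9 to 19.1 times in days 5 to 8.

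Exon length moved with this split across the transcriptome. The median log2 change was 0.37 for 978 genes of up to 1000 exon bases, 0.29, 0.02 and -0.40 for genes of up to 2000, 4000 and 8000 bases, and -0.77 for 408 longer genes (Spearman rho -0.63 over 7263 genes, which share the same 8 libraries). The members followed the same order, with a rho of -0.88 over 9 genes from me31B (1845 bases) to Dhc64C (14597 bases). Beside the genes of its own length class, me31B stood above 91.9% and orb above 87.3%, while Dhc64C stood above 22.5% and stau above 28.8%. With the length trend of each library removed, an alternative chosen after seeing the data, me31B alone was called, beside 3.47% of all genes (0.56, edgeR adjusted p = 0.00771), with Dhc64C at -0.14 (0.563), stau at -0.19 (0.427) and orb at 0.28 (0.154). The calls between the age series kept the same 3 members under that alternative, beside 13.2% of all genes, with Dhc64C at -0.47 (adjusted p = 4.72e-05). There the change was hardly related to length (rho 0.10).

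**Figure D4:**
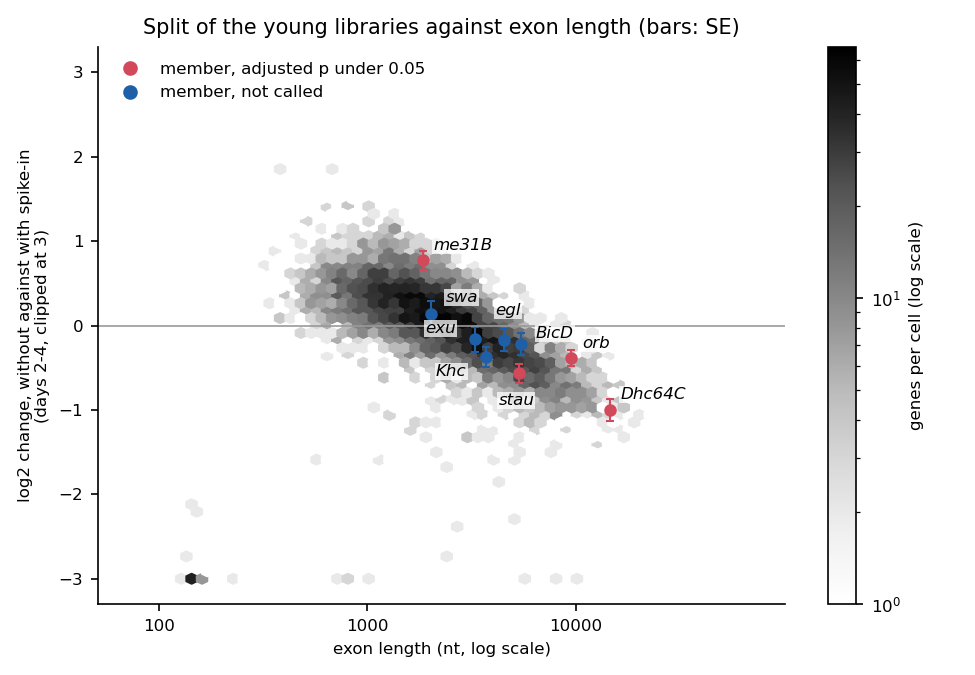
Log2 change of young libraries without against with spike-in (vertical axis, values beyond 3 drawn at 3) by exon length (log axis) for 7263 genes in grey and the 9 members in colour, with SE bars. Shorter genes lie above 0 and longer genes below, and me31B lies at the upper and Dhc64C at the lower end of the members.

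The other genes of the pathway were read from lists, leaving out the members themselves, beside 8.82% of all genes called between the age series. For all these lists, the mRNP and cargo lists below included, that comparison used all 10 young libraries. The lists were not read without the 3 libraries lacking spike-in. Between the age series, dynein and dynactin subunits had 1 of 16 called, sw, the dynein intermediate chain, higher (0.41 ± 0.10, SE, edgeR adjusted p = 0.0130), and none lower. Their median log2 change was 0.04, beside -0.02 over all 8024 genes. Kinesin-1 and oocyte microtubule genes had 0 of 12 called (median 0.06), with betaTub56D the most abundant, and the exon junction complex, which marks spliced oskar mRNA, 0 of 5 (median 0.00), with btz the most abundant. ESCRT-II, which acts in bicoid localization, had 0 of 3 (median 0.08, Vps25 the most abundant), and genes of oocyte specification and polarity 0 of 7 (median -0.02, enc the most abundant).

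Oocyte mRNP and translational control genes had 4 of 20 called, 2 higher and 2 lower, beside 4.06% higher and 4.76% lower of all genes, with a median of 0.16. The poly(A)-binding protein gene pAbp rose from 5471 ± 464 (SD, n = 10) to 7855 ± 492.5 CPM (n = 12), a log2 change of 0.54 ± 0.063 (SE, edgeR adjusted p = 8.01e-06). The Y-box protein gene yps, whose product is found with Exuperantia and oskar mRNA, rose from 765 ± 60.3 to 948 ± 72.0 CPM (0.32 ± 0.068, adjusted p = 0.00490). Edc3, which encodes a partner of Me31B in mRNA decapping, was lower (-0.31 ± 0.083, 0.0207), as was the second CPEB gene orb2 (-0.70 ± 0.17, 0.0126), at 20.6 and 12.3 CPM.

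The cargo list, mRNAs that these factors localize, had 6 of 8 called between the age series, 3 in each direction, beside 4.06% higher and 4.76% lower of all genes, with a median of -0.09. The posterior mRNA osk was at 2042 ± 281 and 2423 ± 261 CPM (log2 0.23 ± 0.067, SE, edgeR adjusted p = 0.0350), while the largest changes were those of pgc (-0.79 ± 0.19, 0.0100), nos (-0.50 ± 0.13, 0.0202), bcd (-0.43 ± 0.11, 0.0149) and fs(1)K10 (0.34 ± 0.084, 0.0126). In the remaining comparisons of days, none of these lists had a called gene.

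In the split of the young libraries, with 6.76% of all genes higher and 12.5% lower, the same lists gave 11 of 20 mRNP genes called (1 higher, 10 lower, median -0.33), 4 of 12 microtubule genes (all lower, median -0.19), 3 of 7 specification genes (all lower, -0.22), 1 of 5 exon junction genes (mago, higher, 0.11), 2 of 8 cargo mRNAs (1 in each direction, -0.03), 0 of 16 dynein genes (0.30) and 0 of 3 ESCRT-II genes (0.54), beside a median of 0.05 over all genes. Among the largest were the spectraplakin shot (-1.26 ± 0.12, SE, edgeR adjusted p = 5.11e-05), with 30414 exon bases, and Patronin, a microtubule minus-end protein (-0.94 ± 0.12, 0.000306), followed by enc (-0.85 ± 0.10, 0.000231) and the decapping scaffold gene Ge-1 (-0.66 ± 0.13, 0.00378). In the same split 8 of 9 follicle cell markers tested were lower.

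Genes whose log2 CPM ran most like each member over the 22 libraries were found by Pearson correlation among all genes tested, as a description, since the libraries share days, depth and the split above. They were snoRNA:Psi18S-176 for Dhc64C (r = 0.94), wge for stau (0.92), tsr for me31B (0.92), l(2)35Df for Khc (0.90), InR for egl (0.88), tud for orb (0.86), CG4991 for swa (0.84), Cul3 for BicD (0.84) and Madm for exu (0.72). The genes most like the mean profile of the 9 members were B4 (0.86), yl (0.83), fs(1)N (0.82), milt (0.79) and CG32138 (0.79), with 6165 to 8114 exon bases. The members did not form 1 group: pairwise correlations ran from -0.68 for stau and me31B to 0.67 for stau and orb. In the 12 older libraries alone the pair stau and me31B stood at 0.36, and the closest pair there was swa and stau at 0.89.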

How the data were processed

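Each deposited file holds whole-number read counts, 1 per feature, that the authors had not normalized. HTSeq (0.6.1p1), HISAT2 (2.0.1), SAMtools (0.1.2) and CASAVA (1.8.2) are named, without roles, in the submitters' processing notes. Gene models are those of the deposited FlyBase release 6 annotation. Of 19146 features, 1572 transposon insertion features (1.46 to 4.11% of counts) and 96 ERCC controls stayed out of library sizes and tests.

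The 10 members, the lists and the comparisons were chosen with earlier results of these data known. Groups came from the sample titles. Genes passing a minimum count of 10 (8024) were tested in edgeR 4.0.16 (R 4.3.3; TMM, quasi-likelihood F-test, a coefficient per day over 22 libraries, 14 residual degrees of freedom, Benjamini-Hochberg, 0.05). The spike-in split used 8 libraries, day and spike-in class, with 4 residual degrees of freedom. The script was tested on simulated data. No pair of replicates was 1 library deposited again (chi-square per degree of freedom at least 3.73). The limit that a count of 0 allows, 3 counts, is 0.307 to 2.62 CPM by library and covers counting error only. Alternatives were DESeq2 1.42.0, its size factors, other filters, a replicate block, spike-in scaling, length correction and left-out libraries.

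Named genes were all members, up to 4 called genes per list with the largest change or else the most abundant, the gene most correlated with each member, the 5 most like the mean profile, and genes overlapping a member with no counts. The cargo mRNA osk, CG30152, CG18808 and the markers vas, nos, tj and Fbp1 were named outside this rule, after their values were seen.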

Additional observations from a re-analysis of the deposited data

How the results depend on the processing

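The 3 members called between the age series remained 3 with DESeq2, with its size factors, with a filter of 1 CPM in 6 libraries and with the length trend removed. They were 2 with no filter (BicD lost), 2 without the 3 libraries lacking spike-in (1 with the same 8024 genes tested, chosen after seeing the data) and 6 against those 3 alone. Leaving out a library gave 0 to 3 members (1 and 0 without day 1 replicate 1 and 2, also with the same genes tested). A day left with 1 library borrows the spread of the other days. The 4 members called in the split by spike-in were 5 with DESeq2, 1 with the length trend removed and 2 to 5 with a library left out. The other comparisons of days called 0 members in every alternative run. Except where the text above gives the share of all genes called, these counts of members stand without it. A fall in members was therefore not told apart from a general loss of calls. Replicate numbers did not clearly pair the libraries. Correlations of deviations for the same number were 0.206 for days 1 and 4 and 0.032 to 0.195 for days 5 and 8. Their median was 0.049 over all days and 0.118 (-0.066 to 0.257) within days 5 to 8, beside -0.023 for different numbers over all days. A replicate block left 3 members called between the age series and 0 in the other comparisons of days.

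The following signs turned, without a call except for Dhc64C. Between the age series and without the 3 libraries lacking spike-in, the log2 change was -0.070 for stau, -0.038 for egl and 0.016 for me31B (-0.078, -0.046 and 0.0077 with the same genes tested). Against those 3 alone Dhc64C was at 0.30. With the length trend removed egl was at -0.023, and with a library left out it ran from -0.045 to 0.046 (-0.024 without day 4 replicate 2 and the same genes tested). For day 4 against day 1 without those 3 libraries, swa was at -0.17, BicD at 0.11, Dhc64C at 0.11 and me31B at -0.19 (-0.16, 0.12, 0.12 and -0.18 with the same genes tested, also when day 4 replicate 2 alone was left out). BicD was at 0.0012 with no filter, 0.028 with 1 CPM in 6 libraries and 0.083 without day 1 replicate 1 and the same genes tested. The length trend removed gave swa -0.019, BicD 0.19 and orb 0.031. With a library left out swa ran from -0.17 to 0.34, BicD from -0.051 to 0.11, Dhc64C from -1.17 to 0.11 and me31B from -0.19 to 0.61. For day 8 against day 5, spike-in library sizes, which moved the median of all genes to -0.64, gave swa -0.43, stau -0.57, egl -0.49, Khc -0.59 and me31B -0.47. With a library left out BicD ran from -0.099 to 0.021, egl from -0.042 to 0.28, Khc from -0.10 to 0.21 and Dhc64C from -0.13 to 0.026. In the split by spike-in, the length trend removed gave swa -0.042, BicD 0.17, egl 0.11 and orb 0.28. The cause of these changes was not tested.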
